A study of Mus musculus with 8 samples.

Results

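The genes of integrins and of the focal adhesion proteins that bind them were compared between 2D- and 3D-cultured mouse adipose-derived stem cells (ADSCs). The group holds 43 genes chosen by name, 21 integrin subunits and 22 adaptors, and all 43 were found among the 24346 genes listed for each library. Total RNA was measured as FPKM, fragments per kilobase of transcript scaled to the sequenced total, in 8 libraries. Levels below are FPKM after quantile normalization, unless given as deposited. Mice 2, 3, 4 and 5 were sequenced from 2D culture and mice 1, 4, 5 and 7 from 3D culture, with mice 4 and 5 in both, and values are listed below in this order of mice. All mice were wild-type BALB/c. Per the methods of the study, the cells were taken from gonadal adipose tissue of male mice aged 12 weeks, and the labels call them primary cultures of mesenchymal stem cells. The 3D cultures grew as organoids in Matrigel, a basement membrane extract rich in laminin and collagen IV, and the study tried media with and without Wnt3a- and R-Spondin1-conditioned medium. Which of these media and which passage the sequenced cultures had is not given in the sources used here. The geometry of the culture, the matrix and any difference in medium changed together and cannot be told apart.

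Integrins are transmembrane receptors made of an alpha and a beta subunit, and the pairing decides the ligand: alpha 5 beta 1 and the alpha v integrins bind the RGD motif of fibronectin and vitronectin, alpha 3 beta 1, alpha 6 beta 1 and alpha 6 beta 4 bind laminins, and alpha 1, 2, 10 and 11 with beta 1 bind collagens. Talins and kindlins bind the beta tail and switch the receptor on, and vinculin, alpha-actinin, filamin, zyxin and the ILK complex link it to actin. Stromal cells on stiff plastic are known for large focal adhesions and stress fibres, whereas alpha 6 beta 4 anchors basal epithelial cells to keratin at hemidesmosomes.

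The libraries were estimated to hold between 16.5 M and 17.3 M fragments in 2D and between 14.5 M and 15.6 M in 3D, from the steps between low FPKM values. The labelled cell type was checked against marker genes, in lists chosen with earlier results of these data known. Of 12 stromal markers 11 were lower in 3D. The summed level of the 12 lay between 2098 and 4530 FPKM in 2D and between 4.78 and 8.71 FPKM in 3D. Pdgfrb, Dcn and Lum were listed at 0 in all 3D libraries, but Lum, the marker not called, did not exceed 0.988 FPKM in 2D either. Of 15 epithelial markers 13 were higher in 3D, with a sum of 32.0 to 694 FPKM in 2D and 2750 to 3218 FPKM in 3D, and Esrp1, Elf3 and Crb3 were listed at 0 in all 2D libraries. Krt18 was not called (limma, adjusted p = 0.0519), although its libraries did not overlap, and Cldn6 was listed at 0 everywhere. The highest 2D sum, that of mouse 4, was mostly Krt8 (261 FPKM) and Krt18 (256 FPKM), with Cdh1 at 0.716 FPKM there. Most of the stromal sum in 3D was Twist1, at 4.59 to 7.99 FPKM. Of the 5 surface markers of mesenchymal stem cells, Thy1 and Eng were lower in 3D, Ly6a was higher, and Nt5e and Cd44 were not called. Nt5e was at 0.79 to 60.6 FPKM in 2D and 0.0626 to 0.35 FPKM in 3D, without overlap (limma, adjusted p = 0.068). Cd44 was at 82.9 to 137 FPKM in 2D and 62.9 to 115 FPKM in 3D, with overlap. Epididymal markers summed to between 0 and 0.184 FPKM in 2D and between 42.8 and 122 FPKM in 3D. Of these 14 markers, Pax8, Pax2 and Spink8 were higher in 3D, 6 were not called and the rest were listed at 0 in every library. Within the 2D group, the libraries of mice 3 and 4 stood apart by mesothelial markers, which summed to 888 and 2266 FPKM there against 27.8 and 28.6 FPKM in mice 2 and 5. Within the 3D group, the library of mouse 1 stood apart, with Ly6a at 58.6 FPKM against 1429 to 3117 FPKM in the other 3D libraries. Fewer cells of a type and less RNA per cell cannot be told apart in bulk RNA. The part of these markers in the changes described below was not tested.

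Most of the adhesion genes were lower in the 3D cultures, and a small set, among them the laminin receptor subunits Itga3, Itga6 and Itgb4 and the kindlin Fermt1, was higher. At an adjusted p below 0.05 (limma, adjusted over 18862 genes) 26 of the 43 genes fell in 3D, where 20.3% of all tested genes fell, and 8 rose, where 21.2% of all tested genes rose. The 8 that rose were Itga3, Itga6, Itga8, Itgb4, Itgb6, Itgb8, Fermt1 and Pxn. As a share of the 43, these rises did not exceed the share of all tested genes that rose. Of all tested genes, 41.5% were called in either direction. With genes averaging under 1 FPKM left out, 3436 of 12577 genes fell and 3573 rose. Of the 37 members among these, 24 fell and 7 rose. The median difference, 3D minus 2D on the log2(FPKM + 1) scale, was -1.11 over the 43 genes and 0.00 over all tested genes. The 3D libraries lay wholly above the 2D libraries for 7 of the genes (21.6% of all genes) and wholly below for 24 (20.9% of all genes), and the groups overlapped for 12. Differences below are on this scale, on which changes of low genes are understated, and with 1 library per mouse and culture the p-values measure the spread between these libraries.

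When the mouse was added as a block, 0 of the 43 genes passed an adjusted p of 0.05 in limma, and the adjusted p of the 34 genes called without it ranged from 0.111 to 0.397 (Actn4). With the block, the difference rests on mice 4 and 5 alone, the only mice in both cultures. The block left 1 residual degree of freedom and called 0 of all genes, although 27.7% of them, and 27 of the 43, had an unadjusted p below 0.05. All 34 called genes had the same sign of difference in mouse 4 and in mouse 5. For called genes whose libraries did not overlap this was fixed in advance. Only Itgb8, Actn4 and Vasp could have differed, so the shared sign adds little to the calls. With each library left out in turn, 27 of the 34 calls held in all 8 fits, and 7 were lost in at least 1. Those 7 are named with their values below. Without the 2D libraries of mice 3 and 4, 6 of the 43 genes rose and 24 fell.

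**Figure D1:**
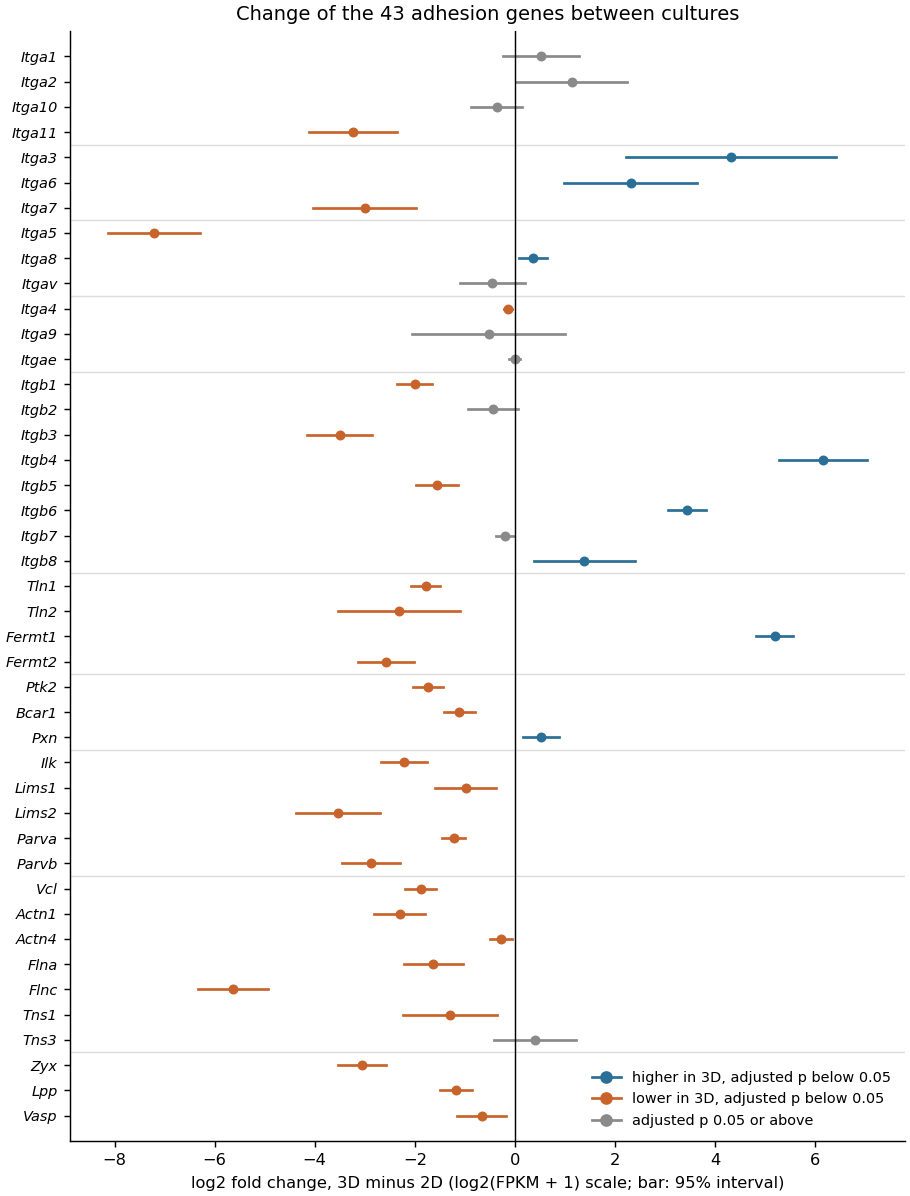
Difference between 3D and 2D cultures for the 43 adhesion genes, in order of their roles. Points are log2 differences, 3D minus 2D, on the log2(FPKM + 1) scale, bars are 95% intervals from limma, and colour marks genes higher in 3D (8), lower in 3D (26) or with an adjusted p of 0.05 or above (9). The integrins lie on both sides of 0, with Itga5 at -7.21 and Itgb4 at 6.15 at the ends, while the adaptors other than Fermt1, Pxn and Tns3 lie below 0.

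The laminin-binding alpha subunits split. Itga3, which pairs with beta 1 to bind laminin-332 and laminin-511 and lies at chr11:95044474-95076801 (minus strand, GRCm38), measured 6.30, 54.4, 50.2 and 2.35 FPKM in the 2D libraries and 311, 347, 357 and 285 FPKM in the 3D libraries. The cultures did not overlap, and the 2D libraries of mice 3 and 4 lay far above those of mice 2 and 5. Itga3 rose by 4.32 ± 0.90 (SE, n = 4 per group, limma, adjusted p = 0.00648; 0.211 with the mouse as a block). Without the 2D library of mouse 5 the difference was 3.53, and without those of mice 3 and 4, which carry the mesothelial markers, it was 5.96. Within mouse 4 it was 2.77 and within mouse 5 it was 6.74.

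Itga6, the partner of beta 4 in hemidesmosomes and of beta 1 in other laminin receptors, measured 10.7, 5.12, 11.5 and 15.8 FPKM in 2D and 151, 64.5, 35.4 and 24.4 FPKM in 3D. The groups did not overlap, but the highest 3D library, that of mouse 1, was far from the lowest, that of mouse 7. Itga6 rose by 2.31 ± 0.57 (limma, adjusted p = 0.0134; 0.19 with the mouse as a block), and the call was lost without the 2D libraries of mice 3 and 4 (1.93, limma, adjusted p = 0.0815). Itga7, the laminin-binding subunit known from skeletal and smooth muscle, went the other way. It measured 6.40, 10.5, 30.4 and 7.31 FPKM in 2D and 0.287, 0.582, 0.674 and 0.574 FPKM in 3D, with no overlap, and fell by 3.00 ± 0.44 (limma, adjusted p = 0.00123; 0.168 with the mouse as a block). An exon of Itga7 overlaps Mettl7b on the other strand, and whether the counting used strand is not given in the sources used here.

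Among the RGD-binding subunits, the largest fall of the 43 genes was that of Itga5, the alpha subunit of the classical fibronectin receptor, at chr15:103344286-103366763 (minus strand). Itga5 measured 445, 223, 126 and 365 FPKM in 2D and 0.251, 0.808, 0.879 and 1.29 FPKM in 3D. All 3D libraries were near 1 FPKM or below, while the lowest 2D library, that of mouse 4, stood at 126 FPKM. The mean level was 359-fold lower in 3D, and the fitted difference was -7.21 ± 0.40 (limma, adjusted p = 9.14e-06; 0.111 with the mouse as a block). It was -6.13 within mouse 4 and -7.61 within mouse 5.

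Itgav, which pairs with beta 1, 3, 5, 6 and 8, stayed abundant in both cultures. Its levels were 78.0, 56.4, 56.0 and 68.4 FPKM in 2D and 65.3, 46.4, 59.6 and 26.1 FPKM in 3D, and the groups overlapped. The difference of -0.45 (95% interval -1.10 to 0.20, limma, adjusted p = 0.24) did not pass the test, although it did on the values as deposited, without quantile normalization, and with median-of-ratios scaling. Itga8, a receptor subunit for nephronectin, lay below 1 FPKM in every library after normalization, between 0.0646 and 0.342 FPKM in 2D and between 0.359 and 0.831 FPKM in 3D. As deposited, the 3D library of mouse 1 was at 1.18 FPKM. Itga8 rose by 0.36 ± 0.12 (limma, adjusted p = 0.0394), a call that was lost without the 2D library of mouse 3 or 5 and without the 3D library of mouse 1 or 4, where the adjusted p in limma reached 0.0932. It was also lost with a pseudocount of 0.1 and without the 2D libraries of mice 3 and 4 together.

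Of the 4 collagen-binding subunits, 1 was called. Itga11, the fibrillar collagen receptor subunit of mesenchymal cells and myofibroblasts, measured 9.60, 11.0, 3.73 and 17.1 FPKM in 2D and 0.0708, 0.058, 0.0944 and 0.121 FPKM in 3D. The groups were far apart, and Itga11 fell by 3.23 ± 0.38 (limma, adjusted p = 0.00039; 0.168 with the mouse as a block). Itga2, the collagen receptor subunit of platelets and epithelia, measured 1.88, 0.779, 0.822 and 2.46 FPKM in 2D and 7.17, 6.44, 5.11 and 1.02 FPKM in 3D. The 3D library of mouse 7 lay within the 2D range and the other 3 above it. The difference of 1.13 (95% interval 0.03 to 2.24) had an adjusted p of 0.0946 in limma, and of 0.00668 without the 3D library of mouse 7. Itga1, a collagen IV receptor subunit, was at 3.77 to 12.0 FPKM in 2D and 6.56 to 12.3 FPKM in 3D, with a difference of 0.51 (limma, adjusted p = 0.247, and 0.0405 without the 2D library of mouse 5). Itga10, known from cartilage, stayed at or below 1.97 FPKM in every library.

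The remaining alpha subunits, those of leukocytes or with other ligands, stayed at or below 6.46 FPKM in every library. Itga4, which binds VCAM-1 and fibronectin, was at 0.0769 to 0.201 FPKM in 2D and 0.0145 to 0.0427 FPKM in 3D, where 3 fragments correspond to between 0.0197 and 0.0212 FPKM before normalization. Its fall of 0.14 ± 0.04 passed the test (limma, adjusted p = 0.014), but not on the values as deposited or with median-of-ratios scaling. Itgae, the partner of beta 7 on intraepithelial lymphocytes, did not exceed 0.149 FPKM in any library. Itga9, a receptor subunit for tenascin-C, measured 2.15, 0.751, 1.15 and 2.04 FPKM in 2D and 6.46, 0.0216, 0.0536 and 0.0474 FPKM in 3D. The 3D library of mouse 1 was the highest of all 8 and the other 3 3D libraries were below every 2D library. The difference over all libraries was -0.53 (limma, adjusted p = 0.548), and without the 3D library of mouse 1 it was -1.20 (limma, adjusted p = 0.00475).

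Leukocyte markers summed to between 2.39 and 25.3 FPKM in 2D and between 7.09 and 43.3 FPKM in 3D. Of these 10 markers, 1 was called, Cd68, which was higher in 3D, and Adgre1, Lyz2, Laptm5 and Tyrobp were listed at 0 in all 3D libraries.

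**Figure D2:**
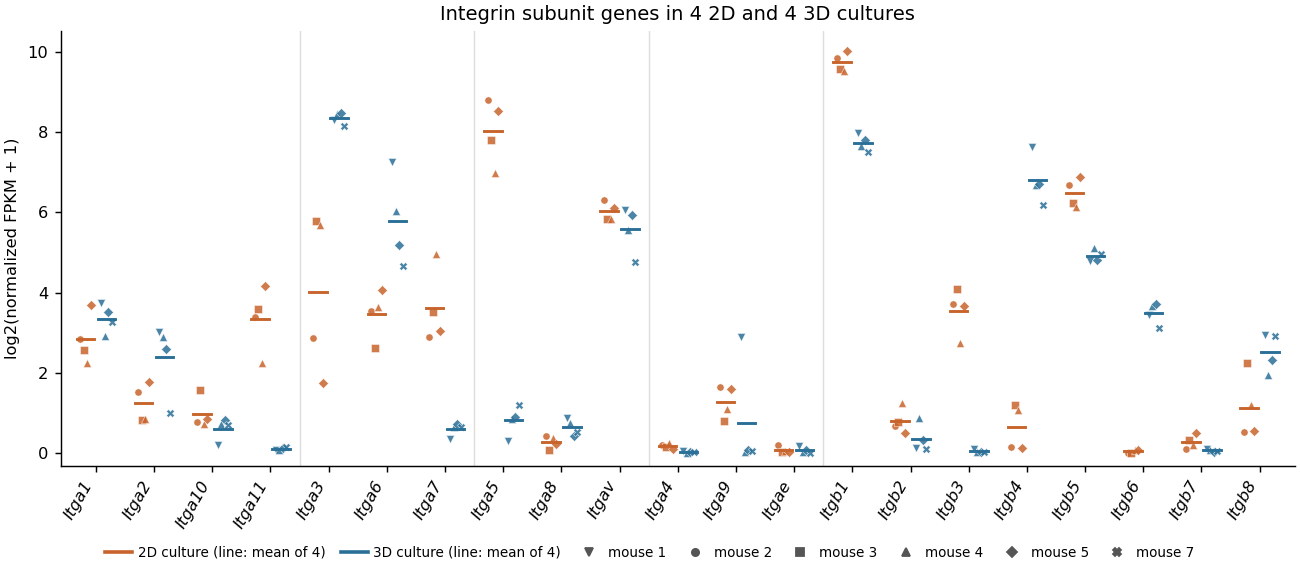
Levels of the 21 integrin subunit genes in each library as log2(normalized FPKM + 1). Each point is 1 library with its mouse given by the symbol, lines are means of 4 libraries, and the columns are ordered as collagen-binding, laminin-binding, RGD-binding and other alpha subunits and beta subunits. The 3D points lie wholly above the 2D points for Itga3, Itga6, Itga8, Itgb4 and Itgb6 and wholly below for Itga11, Itga7, Itga5, Itga4, Itgb1, Itgb3 and Itgb5, and the 3D library of mouse 1 stands alone for Itga9.

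Among the beta subunits, Itgb1, the shared partner of most of the alpha subunits above, was the most abundant beta subunit in every library and fell. It measured 910, 752, 737 and 1027 FPKM in 2D and 249, 199, 221 and 179 FPKM in 3D. The lowest 2D library was well above the highest 3D library. The mean was 4.04-fold lower in 3D, and the fitted difference was -2.01 ± 0.15 (limma, adjusted p = 5.03e-05; 0.111 with the mouse as a block).

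Itgb4 showed the largest rise of the 43 genes. This subunit, whose long cytoplasmic tail binds plectin in hemidesmosomes, lies at chr11:115974709-116008412 (plus strand). It measured 0.124, 1.31, 1.13 and 0.0927 FPKM in 2D and 197, 102, 104 and 71.9 FPKM in 3D. No 2D library exceeded 1.31 FPKM and no 3D library was below 71.9 FPKM. The mean was 179-fold higher in 3D, and the fitted difference was 6.15 ± 0.38 (limma, adjusted p = 1.54e-05; 0.111 with the mouse as a block). Within 2D, mice 3 and 4 were again above mice 2 and 5. An exon of Itgb4 overlaps a noncoding gene on the other strand.

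Itgb6, which pairs with alpha v in epithelia and activates latent TGF-beta, measured 0, 0.012, 0.0679 and 0.0609 FPKM in 2D and 9.86, 11.8, 12.2 and 7.78 FPKM in 3D. The 2D values were at the level of a few fragments or none, since 3 fragments correspond to between 0.0579 and 0.0609 FPKM for this gene before normalization. Itgb6 rose by 3.44 ± 0.16 (limma, adjusted p = 4.34e-06; 0.111 with the mouse as a block), and by 3.58 and 3.64 within mice 4 and 5. Itgb8, another partner of alpha v that activates TGF-beta, measured 0.437, 3.80, 1.32 and 0.481 FPKM in 2D and 6.69, 2.87, 3.98 and 6.53 FPKM in 3D. The 2D library of mouse 3 lay above the 3D library of mouse 4, so the groups overlapped. Its rise of 1.39 ± 0.43 (limma, adjusted p = 0.0344) was lost in 6 of the 8 fits that left out a library. The exceptions were the fits without the 2D library of mouse 3 and without the 3D library of mouse 4, and the adjusted p over the 8 fits ranged from 0.0057 to 0.0861.

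Itgb3, which forms the vitronectin receptor with alpha v, moved opposite to Itgb6. It measured 12.1, 16.1, 5.70 and 11.7 FPKM in 2D and 0.0761, 0.0299, 0.0256 and 0.021 FPKM in 3D, below 0.1 FPKM in every 3D library after normalization (0.117 FPKM as deposited in mouse 1). It fell by 3.50 ± 0.28 (limma, adjusted p = 5.86e-05; 0.121 with the mouse as a block). Markers of platelets, which carry this integrin, summed to 2.17 to 3.73 FPKM in 2D and 2.31 to 13.7 FPKM in 3D, and 0 of the 4 were called. Itgb5, the other vitronectin receptor subunit, measured 101, 73.9, 69.0 and 117 FPKM in 2D and 26.4, 33.7, 27.3 and 29.9 FPKM in 3D. Its groups did not overlap, and it fell by 1.56 ± 0.18 (limma, adjusted p = 0.000361; 0.18 with the mouse as a block). The leukocyte subunits Itgb2 and Itgb7 stayed at or below 1.38 FPKM and did not pass the test.

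Within a library, FPKM values can be compared between subunits, since they are per length of transcript. Of the summed FPKM of the 13 alpha subunits, Itga5 held 78.4%, 60.4%, 44.2% and 74.0% in 2D, and 0.193% ± 0.134 (SD, n = 4) in 3D. Itga3 held 1.11%, 14.7%, 17.6% and 0.475% in 2D and 56.1%, 73.3%, 75.9% and 81.8% in 3D. Itga6 held 2.63% ± 1.22 in 2D and 13.8% ± 9.38 in 3D. The leading alpha subunit thus was Itga5 in every 2D library and Itga3 in every 3D library, and Itgav kept 15.6% ± 2.77 in 2D and 10.4% ± 2.30 in 3D. After the leading gene came Itgav in all 2D libraries and in the 3D libraries of mice 5 and 7, and Itga6 in the 3D libraries of mice 1 and 4.

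Of the summed FPKM of the 8 beta subunits, Itgb1 held 89.1% ± 0.80 in 2D and 57.1% ± 4.45 in 3D. Itgb4 held 0.0783% ± 0.0791 in 2D and 30.5% ± 6.86 in 3D. Itgb5 held 9.29% ± 0.82 in 2D and 8.15% ± 2.18 in 3D. Itgb1 led in all 8 libraries, and Itgb4 took the next place in all 3D libraries. The summed level of the alpha subunits was 429 ± 126 FPKM in 2D and 462 ± 85.3 FPKM in 3D, with overlapping libraries. That of the beta subunits was 961 ± 160 FPKM in 2D and 376 ± 81.9 FPKM in 3D, without overlap. The order of the 2D and 3D means of the alpha sum depends on the normalization. As deposited, Itga5 was at 144 to 571 FPKM in 2D and Itga3 at 226 to 285 FPKM in 3D. Shares of RNA say nothing of how many receptors were assembled at the surface.

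**Figure D3:**
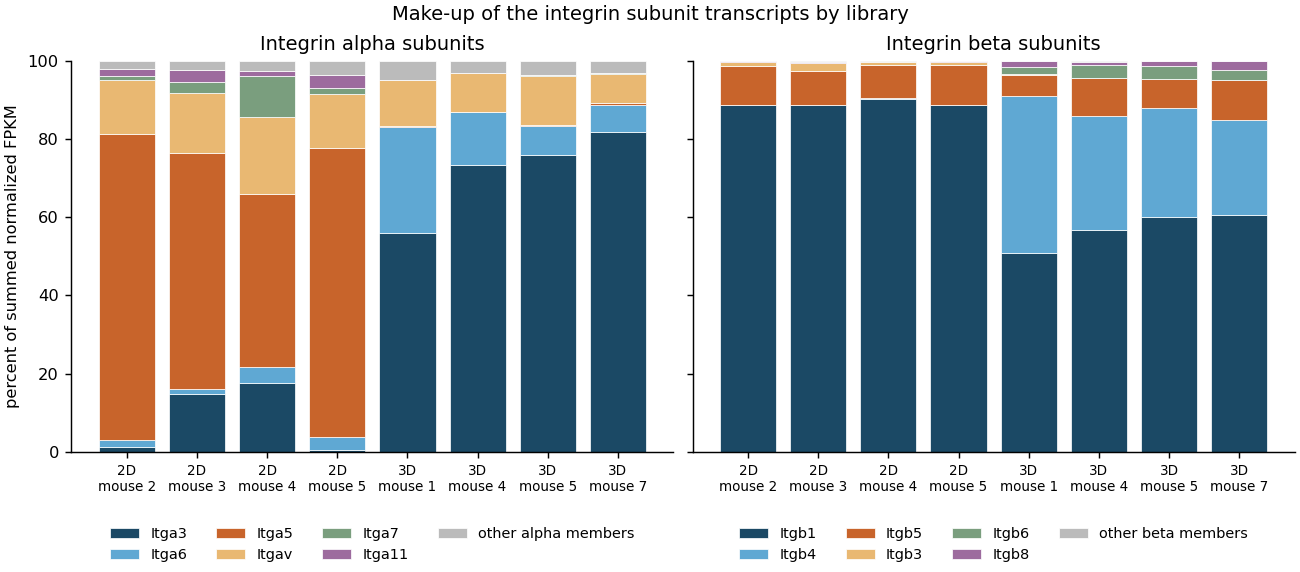
Share of the summed normalized FPKM of the 13 integrin alpha genes (left) and the 8 integrin beta genes (right) held by each gene, in percent, with 1 bar per library. Itga5 makes up 44.2% to 78.4% of the alpha bars in 2D and Itga3 56.1% to 81.8% in 3D, and Itgb4 makes up 24.3% to 40.3% of the beta bars in 3D and at most 0.155% in 2D.

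The activators of integrins bind the beta tail from inside the cell. Fermt1, kindlin-1, known from epithelia, at chr2:132904389-132945906 (minus strand), measured 0, 0.0221, 0.0308 and 0 FPKM in 2D and 28.2, 38.3, 45.4 and 33.9 FPKM in 3D. It was listed at 0 or at a level of few fragments in all 2D libraries, and it rose by 5.19 ± 0.16 (limma, adjusted p = 5.98e-07; 0.111 with the mouse as a block). Fermt2, kindlin-2, the form of most other adherent cells, measured 127, 85.4, 69.3 and 132 FPKM in 2D and 16, 12.1, 20.7 and 16.1 FPKM in 3D. It remained detected in every 3D library but below every 2D library, and it fell by 2.57 ± 0.24 (limma, adjusted p = 0.000133; 0.111 with the mouse as a block).

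Tln1, the talin present in nearly all cells, measured 132, 115, 120 and 140 FPKM in 2D and 32.2, 35.8, 45.4 and 32.2 FPKM in 3D. The spread within each culture was small beside the gap, and Tln1 fell by 1.78 ± 0.12 (limma, adjusted p = 3.16e-05; 0.111 with the mouse as a block). Tln2, the talin of muscle and brain, measured 36.9, 13.4, 9.63 and 38.7 FPKM in 2D and 3.69, 1.41, 3.40 and 6.50 FPKM in 3D. Here the 2D libraries of mice 3 and 4 were below those of mice 2 and 5, and Tln2 fell by 2.32 ± 0.53 (limma, adjusted p = 0.00956; 0.132 with the mouse as a block). An exon of Tln1 overlaps Creb3 on the other strand.

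Of the signalling members, Ptk2, which encodes focal adhesion kinase, measured 37.9, 33.3, 30.5 and 34.0 FPKM in 2D and 9.60, 7.78, 11.7 and 9.09 FPKM in 3D. The groups did not overlap, and Ptk2 fell by 1.74 ± 0.13 (limma, adjusted p = 3.85e-05; 0.115 with the mouse as a block). Bcar1, the scaffold p130Cas that Ptk2 and Src phosphorylate, fell by 1.11 ± 0.13 (limma, adjusted p = 0.000478), from 42.0 to 50.8 FPKM in 2D to 16.4 to 25.3 FPKM in 3D. Pxn, which encodes paxillin, the scaffold that both proteins meet at, did not follow them. It measured 28.7, 35.0, 35.7 and 23.4 FPKM in 2D and 53.3, 39.8, 43.3 and 41.1 FPKM in 3D. The lowest 3D library was 39.8 FPKM and the highest 2D library 35.7 FPKM, so that the gap was narrow. Pxn rose by 0.53 ± 0.16 (limma, adjusted p = 0.0279; 0.362 with the mouse as a block), and the call was lost without the 2D library of mouse 2 or 5 and without the 3D library of mouse 1 or 5, where the adjusted p in limma lay between 0.0503 and 0.0683. It was also lost on the values as deposited and with median-of-ratios scaling.

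All 5 genes of the ILK, PINCH and parvin complex, which joins the beta tail to actin, fell. Ilk, the pseudokinase at its centre, measured 210, 140, 112 and 161 FPKM in 2D and 35.0, 25.8, 36.3 and 31.6 FPKM in 3D. Its lowest 2D library was at 112 FPKM and its highest 3D library at 36.3 FPKM, and it fell by 2.22 ± 0.20 (limma, adjusted p = 0.0001; 0.111 with the mouse as a block). Exons of Ilk overlap Taf10 and Rrp8 on the other strand.

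In each of the PINCH and parvin pairs the widely expressed gene stayed detected and the other was near 0 in 3D. Lims2, PINCH-2, measured 16.6, 10.7, 5.49 and 20.5 FPKM in 2D and 0.0263, 0.0753, 0.127 and 0.258 FPKM in 3D, and fell by 3.54 ± 0.36 (limma, adjusted p = 0.000199; 0.148 with the mouse as a block). Parvb, beta-parvin, measured 6.81, 4.86, 4.33 and 10.9 FPKM in 2D and 0, 0.013, 0 and 0 FPKM in 3D. All 3D values of Parvb were at or under the level of 3 fragments, so its mean level in the deposited values was at least 116-fold lower in 3D, taking the highest such level per library, 0.0548 FPKM, as the floor. The fitted difference was -2.87 ± 0.25 (limma, adjusted p = 9.07e-05; 0.133 with the mouse as a block).

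Parva, alpha-parvin, was at 72.7 to 86.1 FPKM in 2D and 29.9 to 39.2 FPKM in 3D and fell by 1.22 ± 0.10 (limma, adjusted p = 6.49e-05). Lims1, PINCH-1, measured 60.9, 71.3, 65.2 and 66.4 FPKM in 2D and 53.1, 39.3, 26.2 and 21.1 FPKM in 3D. The 3D library of mouse 1 came close to the 2D range and that of mouse 7 was lowest. Lims1 fell by 0.98 ± 0.26 (limma, adjusted p = 0.0189; 0.168 with the mouse as a block), with the call lost without the 3D library of mouse 5 (limma, adjusted p = 0.0521) and without the 2D libraries of mice 3 and 4 (0.0951).

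**Figure D4:**
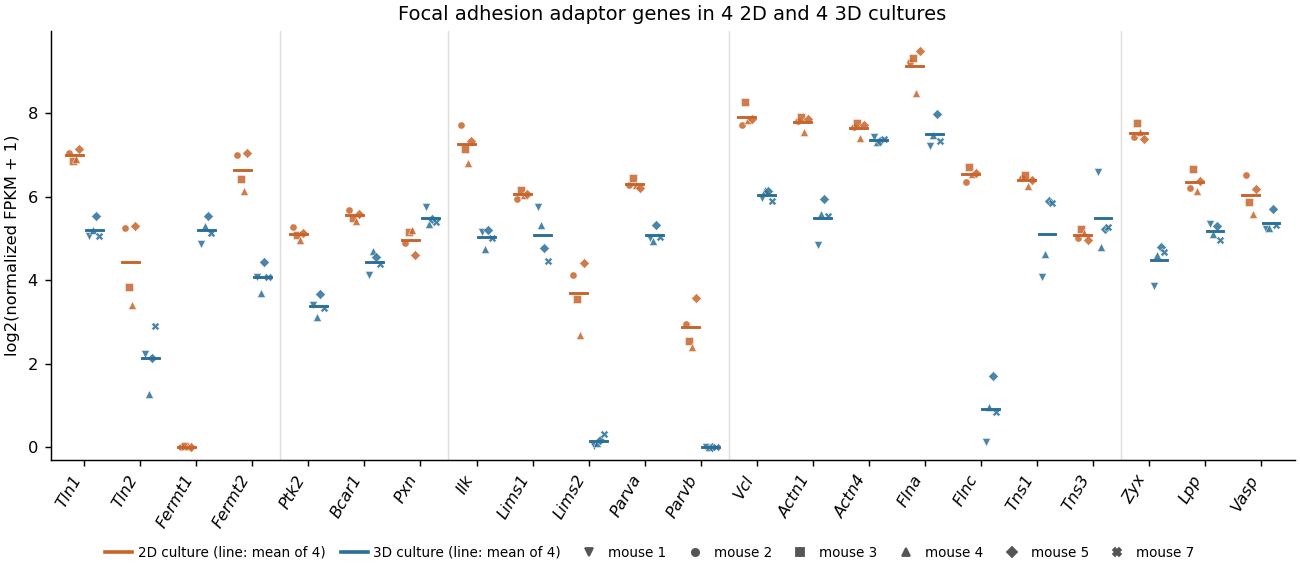
Levels of the 22 focal adhesion adaptor genes in each library as log2(normalized FPKM + 1). Each point is 1 library with its mouse given by the symbol and lines are means of 4 libraries. The 3D points lie below the 2D points for 17 genes and above them for Fermt1 and Pxn, and Lims2, Parvb and Flnc are near 0 or low in 3D while Fermt1 is near 0 in 2D.

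Among the actin linkers, Vcl, which encodes vinculin, the protein that reinforces talin under tension, measured 209, 307, 229 and 233 FPKM in 2D and 61.4, 70.6, 70.0 and 58.4 FPKM in 3D. The 3D libraries were close to each other and all below the 2D libraries, and Vcl fell by 1.88 ± 0.13 (limma, adjusted p = 3.14e-05; 0.111 with the mouse as a block). Actn1, the alpha-actinin of stress fibres, measured 223, 241, 187 and 232 FPKM in 2D and 28.0, 47.2, 60.4 and 45.8 FPKM in 3D, with the 3D library of mouse 1 lowest. It fell by 2.30 ± 0.22 (limma, adjusted p = 0.000138; 0.111 with the mouse as a block).

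Actn4, the other non-muscle alpha-actinin, measured 203, 219, 169 and 210 FPKM in 2D and 171, 157, 161 and 166 FPKM in 3D. The 2D library of mouse 4 lay within the 3D range. Actn4 fell by 0.28 ± 0.09 (limma, adjusted p = 0.0452; 0.397 with the mouse as a block), and this call was kept only without the 2D library of mouse 4 and lost without any of the other 7 libraries, with adjusted p in limma up to 0.106. It was also lost when genes averaging under 1 FPKM were left out and with a pseudocount of 0.1. The size of the fall depended on the scaling. On the values as deposited, Actn4 was at 192 to 282 FPKM in 2D and 125 to 136 FPKM in 3D, with no overlap, and the difference was -0.89 (limma, adjusted p = 0.00105), and with median-of-ratios scaling it was -0.90 (limma, adjusted p = 0.00104).

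The filamins crosslink actin and bind beta tails. Flnc, the muscle filamin, at chr6:29433256-29461883 (plus strand), measured 81.6, 105, 92.0 and 93.6 FPKM in 2D and 0.0901, 0.972, 2.29 and 0.814 FPKM in 3D. The 3D libraries were far below the 2D libraries, with that of mouse 1 lowest. The mean was 89.4-fold lower in 3D, and the fitted difference was -5.63 ± 0.30 (limma, adjusted p = 8.15e-06; 0.111 with the mouse as a block). Flna, the abundant filamin of most cells, measured 598, 643, 357 and 719 FPKM in 2D and 147, 178, 251 and 162 FPKM in 3D. It fell less, by 1.63 ± 0.26 (limma, adjusted p = 0.00169; 0.143 with the mouse as a block), and it was the most abundant adaptor in 2D.

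The tensins bind beta tails in fibrillar adhesions. Tns1 measured 86.0, 91.3, 75.9 and 83.7 FPKM in 2D and 16.1, 23.8, 58.4 and 56.9 FPKM in 3D. Its 3D libraries formed a low pair, mice 1 and 4, and a higher pair, mice 5 and 7, all below 2D. Tns1 fell by 1.29 ± 0.40 (limma, adjusted p = 0.035; 0.264 with the mouse as a block), a call lost without any 1 of the 2D libraries, without the 3D library of mouse 4 (adjusted p in limma between 0.0582 and 0.0863) and without the 2D libraries of mice 3 and 4 together. Tns3 measured 31.4, 36.3, 34.3 and 30.1 FPKM in 2D and 96.4, 27.1, 36.7 and 37.9 FPKM in 3D. The 3D library of mouse 1 was alone in its height, and the difference of 0.40 (95% interval -0.42 to 1.21, limma, adjusted p = 0.406) did not pass the test.

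The LIM and actin polymerization members fell as well. Zyx, which encodes zyxin, a marker of mature tension-bearing adhesions, measured 173, 217, 188 and 166 FPKM in 2D and 13.5, 23.6, 26.7 and 24.5 FPKM in 3D. No library came near the other group, and Zyx fell by 3.05 ± 0.21 (limma, adjusted p = 2.78e-05; 0.111 with the mouse as a block). Lpp, a relative of zyxin, fell by 1.17 ± 0.14 (limma, adjusted p = 0.000433), from 69.9 to 101 FPKM in 2D to 30.1 to 40.1 FPKM in 3D. Vasp, the actin elongation factor that zyxin recruits, was at 47.5 to 91.4 FPKM in 2D and 36.8 to 51.1 FPKM in 3D. The 3D library of mouse 5 lay above the 2D library of mouse 4. Vasp fell by 0.67 ± 0.21 (limma, adjusted p = 0.0349; 0.179 with the mouse as a block), a call lost without the 2D library of mouse 2 or 5 and without the 3D library of mouse 1, 4 or 7, with adjusted p in limma between 0.0647 and 0.0852. Exons of Zyx, Vcl, Actn1, Actn4 and Lpp overlap a gene on the other strand.

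Related adaptor genes did not change together, which was described by the log2 ratio within each library, with no test. The ratio of Fermt1 to Fermt2, on the log2(FPKM + 1) scale, was -6.64 ± 0.47 (SD, n = 4) in 2D and 1.12 ± 0.34 in 3D. In 2D Fermt2 was the kindlin detected well, and in 3D Fermt1 exceeded it in every library. The ratio of Actn1 to Actn4 was 0.14 ± 0.01 in 2D and -1.88 ± 0.49 in 3D, so that both alpha-actinins were at like levels in all 2D libraries and Actn4 was ahead in all 3D libraries. Ratios of Flna to Flnc (2.58 in 2D and 6.58 in 3D), Lims1 to Lims2 (2.36 and 4.92) and Parva to Parvb (3.43 and 5.08) were higher in every 3D library than in any 2D library. Tns1 exceeded Tns3 in all 2D libraries (1.33 ± 0.15) but not in the 3D libraries of mice 1 and 4 (-2.51 and -0.18). The ratio of Tln1 to Tln2 overlapped between the cultures.

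**Figure D5:**
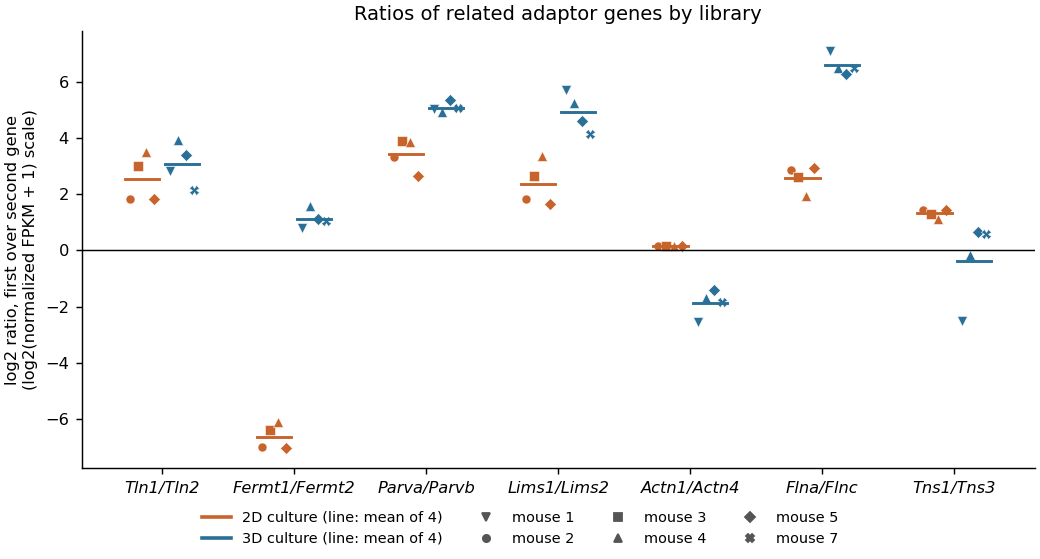
Log2 ratio of 7 pairs of related adaptor genes, first gene over second, from log2(normalized FPKM + 1). Each point is 1 library with its mouse given by the symbol and lines are means of 4 libraries. Fermt1/Fermt2 moves from -6.64 in 2D to 1.12 in 3D and crosses 0, Actn1/Actn4 and Tns1/Tns3 are lower in 3D, and Tln1/Tln2 overlaps.

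The promoters of the members were read for short motifs of regulators of adhesion and epithelial genes. The windows reach from 250 bases before to 50 bases after each start in RefSeq (GRCm38.p6), and 32 of the 43 genes had a window, 40 windows in all. Itga6, Itga7, Itgae, Itgb2, Itgb3, Itgb4, Tln2, Ptk2, Pxn, Lims2 and Parva had none. The CArG box, the site of serum response factor, was found in 3 of the 40 windows (7.5%) and in 1.63% of all 32851 windows. Its members were Vcl and Fermt2, which fell, and Itgb6, which rose. These 3 sites are shown with 10 bases on either side and the box in capitals, Itgb6 at chr2:60673724-60673753 (minus strand), Vcl at chr14:20929161-20929190 (plus strand) and Fermt2 at chr14:45530250-45530279 (minus strand).
Itgb6: cacctgacttCCTTATAAGGtgaatgagga
Vcl: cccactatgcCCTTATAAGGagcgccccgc
Fermt2: tccttcatttCCATAAAAGGgcagcgctcc

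The box of Itgb6 and that of Vcl had the same letters although the genes moved in opposite directions. The TEAD motif, CATTCC or GGAATG, was found in 20% of the member windows and 14.7% of all windows. The same site of Flnc lay in overlapping windows of that gene, and each of these windows was counted. It was held by Itgb1, Vcl, Actn4, Flna, Flnc and Lpp, which all fell, and by Itga10, which was not called. Most of the members fell, 26 of the 43, and the call of Actn4 was lost in 7 of the 8 fits that left out a library. A link between a motif and the direction of change was not tested. As examples, those of Itgb1, at chr8:128685637-128685662 (plus strand), Flna, at chrX:74246665-74246690 (minus strand), and Flnc, at chr6:29433142-29433167 (plus strand), are shown with the motif in capitals. The sites of Vcl, Actn4, Lpp and Itga10 are not shown.
Itgb1: gcggcgcggaGGAATGcgtttccgga
Flna: cgttgtggggCATTCCaacgggaggg
Flnc: ggccgggcggCATTCCtgggaggccg

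The AP-1 motif, TGANTCA, was found in 10% of the member windows (7.81% of all). It was in Itga3, which rose, in Actn4 and Zyx, which fell, and in Itga9, which was not called. The GRHL motif, AACNNGTT, was in 5% of the member windows, against 4.2% of all, in Itgb6, which rose, and Actn4, which fell. The ZEB E-box, CAGGTG or CACCTG, was in 22.5% of the member windows and 20.2% of all. Of the 9 genes that held it, 3 rose, 4 fell and 2 were not called. All motifs were searched on both strands, and no sites of different motifs overlapped in the member windows. Such a match is a run of letters and not a measured binding site. The sites given above for Itgb6, Flna, Lpp, Itga3 and Itga9 come from starts inside the annotated gene. Which starts were in use in these cells was not tested.

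Beyond the 43 genes, 71 other genes of the adhesion machinery were measured, of which 31 fell (20.3% of all genes), 8 rose (21.2% of all genes) and 32 did not pass the test. With genes averaging under 1 FPKM left out, 29 of them fell and 9 rose. In the blocked fit 0 of the 71 were called, and 28 had an unadjusted p below 0.05. Their median difference was -0.22. Of those without overlap, the largest falls were those of Palld (-5.00), which encodes the stress fibre protein palladin, Tgfb1i1 (-4.40), which encodes the paxillin relative Hic-5, Layn (-4.10), which encodes the hyaluronan receptor layilin, Fyn (-3.81), a Src family kinase, and Sorbs3 (-3.79), which encodes the vinculin-binding protein vinexin. Tgfb1i1 measured 29.4, 18.4, 14.1 and 29.1 FPKM in 2D and 0.0183, 0.0898, 0.123 and 0.0722 FPKM in 3D, with no overlap, beside the narrow rise of its relative Pxn.

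The largest rises were those of Sorbs2 (5.10), a relative of vinexin, the tetraspanins Cd82 (2.89) and Cd9 (2.03), which associate with integrins in the membrane, the adaptor Nck2 (1.17) and Kank3 (0.72). Cd9 measured 57.2, 72.0, 68.6 and 123 FPKM in 2D and 328, 307, 339 and 295 FPKM in 3D, with no overlap. Of the 5 other integrin alpha genes, those of leukocytes and platelets, 0 were called in limma (0 at an unadjusted p below 0.05 with the mouse as a block). Itga2b lay between 1.14 and 1.55 FPKM in all libraries, and Itgal, Itgax and Itgad were listed at 0 in all 3D libraries.

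The list of 7 other hemidesmosome and tetraspanin genes held 2 that rose, Cd9 and Cd82, 2 that fell, and 3 that did not pass the test, Col17a1, Cd151 and Cd81. Plec, which encodes plectin, fell by 0.80 ± 0.22 (limma, adjusted p = 0.0209), with overlapping libraries, and Dst, which encodes dystonin, fell by 1.43 ± 0.20 (limma, adjusted p = 0.00089). Col17a1, the hemidesmosomal collagen, measured 0.134, 0.192, 0.159 and 0.14 FPKM in 2D and 10.1, 0.103, 0.0511 and 0.0613 FPKM in 3D. It stood out in the 3D library of mouse 1 alone, the library with the highest Itga6 and Itgb4, and did not pass the test (limma, adjusted p = 0.462). Cd151, a tetraspanin that binds laminin receptors, was at 108 to 190 FPKM in 2D and 114 to 182 FPKM in 3D. Plec, Dst, Col17a1, Cd151 and Cd81 are named after their values were seen.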

How the data were processed

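Directional paired-end libraries were sequenced by the authors from RNA depleted of rRNA. Reads were trimmed (FASTX_Trimmer, BBMap) and mapped by TopHat to mm10, per the submitters' processing notes, and the authors deposited FPKM values per gene from Cufflinks. The annotation and the strand setting are not given in the sources used here. The deposited FPKM values do not yet include the quantile normalization that the methods name.

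Genes listed at 0 in all libraries (5484 of 24346) were left out. The remaining 18862 were quantile normalized, converted to log2(FPKM + 1) and fitted with limma 3.58.1 in R 4.3.3 (empirical Bayes with intensity trend, 3D minus 2D, no covariates, Benjamini-Hochberg adjustment). The fit was tested on simulated data. Levels in the text are normalized FPKM. Depth was read from the spacing of low values over 875 single-transcript genes (length 3000 nt or more, GENCODE M21), and per library 63.5% to 79.5% of low values lay within 0.1 of a whole number of fragments. Floors and this estimate cover counting error only. Gene positions are those of GENCODE M21, and exons of 15 of the 43 genes overlap another gene.

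The members and gene lists were chosen with earlier results of these data known. All members could be named, with values in every library for called members with a log2 difference of at least 2 in size and for the most abundant or only members of a role. Other members, among them Itga2, Itga9, Tns3, Itgb5, Itgb8, Lims1 and Tns1, are also given by library, outside this rule. Of the other adhesion genes, the 5 largest rises and falls without overlap and the other integrin alpha genes were named. Epididymal markers summed to 0 to 0.184 FPKM in 2D and 42.8 to 122 FPKM in 3D. Of the 14, 3 were higher in 3D (Pax8, Pax2 and Spink8) and Lcn5, Lcn9, Adam7, Spint4 and Wfdc10 were listed at 0 everywhere. Endothelial markers summed to 0.891 to 6.42 FPKM in 2D and 0.025 to 0.100 FPKM in 3D, with 0 of 5 called. Of 10 mesothelial markers, 1 was called, Krt19, which was higher in 3D and is also on the epithelial list.

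Mice 4 and 5 gave a library of each culture, which pairs these libraries. The deviations of their 2D and 3D libraries from the culture means correlated at -0.05 and -0.11 across the 12577 genes that averaged 1 FPKM or more.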

Additional observations from a re-analysis of the deposited data

Results flagged for a closer look

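In 6 of the 86 groups of 4 libraries, 1 library lay farther from the others than Dixon's 95% limit for 4 values allows, and chance gives about 1 in 20 such groups. In 3D, Itga9 in mouse 1 stood at 6.46 FPKM against 0.0216 to 0.0536 FPKM in the other libraries, and Itgb3 in mouse 1 at 0.0761 FPKM against 0.021 to 0.0299 FPKM. Parvb in the 3D library of mouse 4 stood at 0.013 FPKM against 0 in the other 3, and Vasp in that of mouse 5 at 51.1 FPKM against 36.8 to 38.9 FPKM. For Parvb any value above 0 would have been flagged, and its 3D values were at or under the level of 3 fragments. In 2D, Itga10 in mouse 3 stood at 1.97 FPKM against 0.657 to 0.808 FPKM, and Itgae in mouse 2 at 0.149 FPKM against 0.0313 to 0.046 FPKM.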

How the results depend on the processing

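In 14 alternatives other than the mouse as a block, 27 of the 43 genes kept their direction and their side of the threshold, 25 of them called. With the mouse as a replicate block, 0 members, 0 of all genes and 0 of the other adhesion genes were called higher and 0 lower. The blocked difference rests on mice 4 and 5 alone, and the cause of the lost calls was not tested. Unadjusted p-values in limma were below 0.05 for 27 members with the block and 36 without it. Leaving out 1 library gave 5 to 8 members higher and 23 to 25 lower. The lowest count, 5, came without the 3D library of mouse 1, which lost Itga8, Itgb8 and Pxn. Itgae, at -0.01, changed sign to 0.0376 on the values as deposited, to 0.0372 with median-of-ratios scaling and to 0.00619 with the block, and ranged from -0.0385 to 0.0336 with a library left out (above 0 without the 2D library of mouse 2 or the 3D library of mouse 4 or 7). Tns3 changed sign from 0.40 to -0.0261 with the block. Calls appeared for Itgb2 without the 3D library of mouse 4 and for Itgb7 without the 2D library of mouse 2. With a pseudocount of 0.1 in place of 1, the log2 ratios differed more between the cultures, by 10.96 against 7.76 for Fermt1 to Fermt2 and by 5.19 against 4.00 for Flna to Flnc. The alternative without the 2D libraries of mice 3 and 4 was chosen after seeing the data. At this depth, genes under about 0.1 FPKM rest on few fragments.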
